A study of Mus musculus with 28 samples.

Results

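Glycolysis breaks glucose down to pyruvate in the cytosol, and the pentose phosphate pathway branches off at glucose phosphate to make NADPH and ribose. The 32 mouse genes described here code for the glucose and lactate transporters, the glycolytic enzymes and their regulators, lactate dehydrogenase and the enzymes of the pentose phosphate pathway. They were chosen by name from the 43430 gene IDs of the deposited count tables, and all 32 passed the filter on low counts in every comparison. All cells were regulatory T (Treg) cells of C57BL/6NJ mice, sorted as CD4+ YFP-Foxp3+ CD25+. Such cells are marked by the transcription factor Foxp3 and restrain other immune cells. RISP is the Rieske iron-sulfur protein of mitochondrial complex III, encoded by Uqcrfs1. RISP_KO and RISP_WT cells came from mice 3 weeks old (n = 4 libraries each). RISP_Chimera_KO and RISP_Chimera_WT cells came from chimeras 8 to 12 weeks old (n = 4 each). In vitro, RISP wild-type cells of mice 3 weeks old were given 1 µM piericidin, 500 µM 3-NPA or 1 µM antimycin A, or were left untreated (n = 3 each), and the time of exposure is not given in the sources used here. Piericidin inhibits complex I, 3-NPA (3-nitropropionic acid) complex II and antimycin A complex III of the respiratory chain. All libraries are bulk RNA of sorted cells. The labels give neither the driver of the deletion nor whether replicates are separate mice, so the p-values measure only the spread between these libraries.

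In resting Treg cells, mitochondrial oxidation is known as a main route of energy supply, and glycolysis rises when T cells are activated. When the respiratory chain is blocked, cells can make ATP by glycolysis, and lactate dehydrogenase turns pyruvate into lactate to restore the NAD+ that glyceraldehyde phosphate dehydrogenase uses. Many glycolytic genes are known targets of the hypoxia-inducible factors, which bind sites with the core ACGTG, and of MYC, which binds the E-box CACGTG.

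Uqcrfs1 fell in both knockouts. It read 7.28, 5.63, 5.20 and 6.48 CPM (read counts scaled to a common library size) in RISP_KO, against 189, 151, 186 and 174 CPM in RISP_WT. In the chimeras it read 4.88, 11.3, 4.83 and 6.01 CPM in RISP_Chimera_KO, against 82.5, 87.7, 83.7 and 72.7 CPM in RISP_Chimera_WT. Libraries held 28446051 to 50769961 counts in the table of mice 3 weeks old, 20437386 to 31019835 in the chimera table and 2707199 to 3445930 in vitro. Treg cell markers were detected in every library, although Foxp3 read 25.1 to 38.2 CPM in RISP_KO and 30.3 to 35.8 CPM in RISP_WT, against at least 385 CPM elsewhere. The summed CPM of 6 macrophage markers was 4.83 to 9.21 in RISP_KO, against 13.1 to 32.4 in RISP_WT. The sum of 5 B cell markers was 21.6 to 27.7 CPM in RISP_KO, against 42.0 to 54.7 CPM in RISP_WT. The sum of 4 natural killer cell markers went the other way, at 12.4 to 21.7 CPM in RISP_KO, against 3.89 to 7.05 CPM in RISP_WT, most of it Eomes, while Klre1 was at 0 in all 4 RISP_KO libraries. Epithelial markers (4 genes) summed to 17.8 to 28.3 CPM in RISP_KO, against 33.8 to 45.6 CPM in RISP_WT. Erythroid markers summed to between 1.65 and 182 CPM in RISP_KO, against 0.460 to 69.5 CPM in RISP_WT, with RISP_KO replicate 3 and RISP_WT replicate 2 the highest of their groups. The sums of dendritic cell, CD8 T cell and neutrophil markers, at most 28.3 CPM in any RISP_KO library and 23.5 CPM in any RISP_WT library, overlapped between the groups.

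Sequences just upstream of the start of transcription are shown for the members that moved in the most comparisons. Gapdh changed in 4 of the 5 comparisons with a control described below, and Pgk1, Pgam1 and Ldha in 3 each. Each run holds 250 bases before and 50 after the annotated start, read 5′ to 3′ on the strand of the gene from the RefSeq table of build GRCm38.p6. The Gapdh window is chr6:125165724-125166023 on the minus strand. The windows of Pgk1, chrX:106186850-106187149, Pgam1, chr19:41911621-41911920, and Ldha, chr7:46845554-46845853, lie on the plus strand, and that of Ldha is the first of 2 in the table. Capitals mark ACGTG or its reverse complement CACGT, and the runs of CACGTG in Ldha are E-boxes that hold both.
Gapdh: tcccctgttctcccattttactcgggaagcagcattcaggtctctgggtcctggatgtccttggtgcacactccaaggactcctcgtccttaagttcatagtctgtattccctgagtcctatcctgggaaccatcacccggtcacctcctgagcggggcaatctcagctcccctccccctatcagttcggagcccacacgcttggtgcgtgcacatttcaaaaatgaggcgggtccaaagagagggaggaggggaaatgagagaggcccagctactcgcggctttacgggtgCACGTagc
Pgk1: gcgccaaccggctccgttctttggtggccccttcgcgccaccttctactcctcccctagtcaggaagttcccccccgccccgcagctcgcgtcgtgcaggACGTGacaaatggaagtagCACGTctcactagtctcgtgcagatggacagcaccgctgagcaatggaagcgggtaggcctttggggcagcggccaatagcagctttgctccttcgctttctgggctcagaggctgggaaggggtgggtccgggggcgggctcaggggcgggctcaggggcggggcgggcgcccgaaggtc
Pgam1: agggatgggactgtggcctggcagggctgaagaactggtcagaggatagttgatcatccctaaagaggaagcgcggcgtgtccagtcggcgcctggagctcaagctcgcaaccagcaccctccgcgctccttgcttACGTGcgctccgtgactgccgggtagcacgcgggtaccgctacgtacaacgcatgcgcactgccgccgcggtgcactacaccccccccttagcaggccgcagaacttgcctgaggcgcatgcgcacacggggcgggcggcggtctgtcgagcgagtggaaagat
Ldha: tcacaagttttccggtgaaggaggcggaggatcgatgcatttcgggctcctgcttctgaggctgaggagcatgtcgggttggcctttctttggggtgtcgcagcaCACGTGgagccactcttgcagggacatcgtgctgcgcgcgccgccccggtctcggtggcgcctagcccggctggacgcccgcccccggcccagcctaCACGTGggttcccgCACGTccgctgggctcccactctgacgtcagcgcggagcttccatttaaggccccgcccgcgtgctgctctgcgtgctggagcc

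These windows hold 1 ACGTG site in Gapdh, 2 in Pgk1, 1 in Pgam1 and 3 in Ldha, 2 of them within an E-box. ACGTG, searched on both strands, lay in 20 of the 46 windows that the table gives for 31 of the 32 genes, a share of 43.5%, against 19.6% of all 32851 windows. The genes with such a window numbered 16, among them Slc2a1, Hk2, Aldoa, Pkm and Slc16a3. Among the genes with 0 sites were Gpi1, Pfkp, Tpi1, Eno1, Eno2, Eno3, Ldhb and Tkt. A share by gene over all genes was not computed. The E-box CACGTG lay in 5 of the 46 windows (10.9%), against 7.15% of all, and the element TGATGCAA in 0 of 46, against 0.895% of all. A match here describes letters and no binding was measured.

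Levels between genes were compared per kilobase of merged exons. Ldha, which makes lactate from pyruvate, was the highest of the 32 genes on that scale in every group but antimycin A, with 754 ± 25.0 CPM per kb in RISP_KO, 674 ± 38.0 in RISP_WT and 333 ± 21.4 in untreated cells (SD). Pkm, the pyruvate kinase, followed in these groups except with piericidin. It read 386 ± 23.2 CPM per kb in RISP_KO, 298 ± 13.1 in RISP_WT and 234 ± 4.27 in untreated cells. With piericidin, Ldha at 250 ± 29.2 CPM per kb and Aldoa at 248 ± 14.1 did not differ beyond their spread. The same held with antimycin A, for Aldoa at 188 ± 8.81 CPM per kb and Ldha at 186 ± 6.59. At the low end, Pfkfb2, a regulator of the phosphofructokinase step, read 0.189 ± 0.064 CPM per kb in RISP_KO and 0.178 ± 0.062 in RISP_WT.

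Loss of RISP in mice 3 weeks old was accompanied by higher glycolytic mRNA. Of the 32 genes, 11 rose in RISP_KO and 0 fell (edgeR quasi-likelihood test, Benjamini-Hochberg adjusted p under 0.05), while 9.86% of all genes tested were called, 4.78% higher and 5.08% lower. At an unadjusted p under 0.05, 0 members were lower by edgeR, and 0 were called lower by DESeq2. The median log2 fold change was 0.26 over the members and 0.0045 over all 13832 genes tested, and 26 of the 32 were positive. Most rises lay in glycolysis, in 5 of 9 genes from hexokinase to triosephosphate isomerase and 5 of 9 from Gapdh to lactate dehydrogenase. The enolases Eno1, Eno2 and Eno3 and the lactate dehydrogenase gene Ldha were not called by edgeR. Of the 7 pentose phosphate genes 0 were called, with 2 positive (Pgls and Tkt) at an unadjusted p under 0.05 and Tkt called higher by DESeq2.

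**Figure D1:**
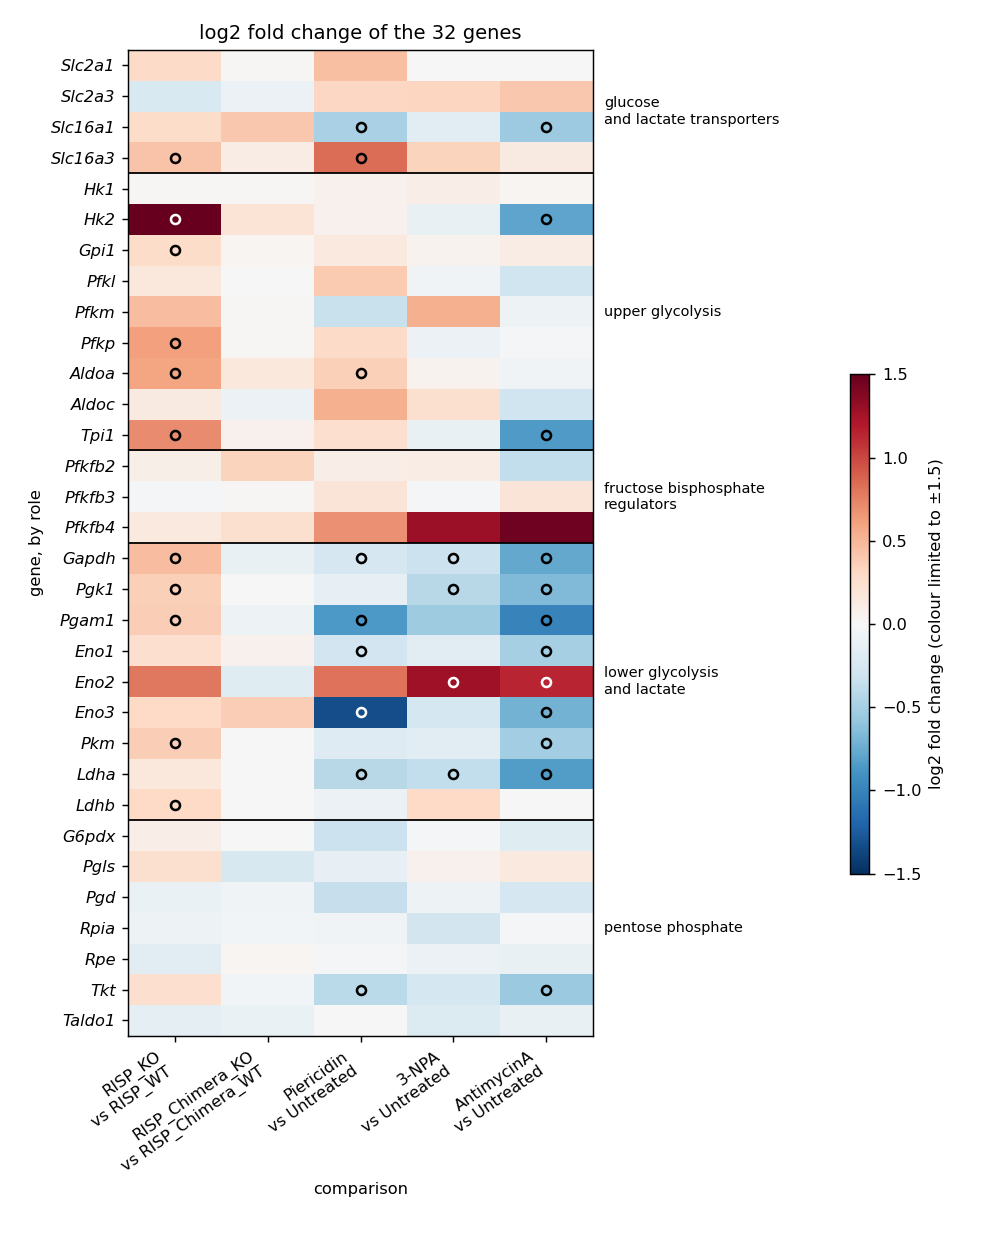
Log2 fold change of the 32 genes (rows, grouped by role) in each of the 5 comparisons with a control (columns), from blue for lower to red for higher, with colour limited to ±1.5. Circles mark genes called at an adjusted p under 0.05: 11 higher in RISP_KO, 0 in RISP_Chimera_KO, and mostly lower ones in lower glycolysis with antimycin A.

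Among the transporters, 1 of 4 rose. Slc16a3, a lactate exporter, rose with a log2 fold change of 0.42 ± 0.11 (SE; adjusted p = 0.0350). Slc2a1, the main glucose transporter of activated T cells, read 86.8, 79.6, 104 and 103 CPM in RISP_KO, against 86.6, 76.4, 72.5 and 71.2 CPM in RISP_WT. The groups overlapped, and the log2 fold change of 0.29 ± 0.11 missed the threshold (adjusted p = 0.131). The other transporters, Slc16a1 at 0.27 and Slc2a3 at -0.23, were not called.

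In upper glycolysis the median log2 fold change was 0.46 over the 9 genes. Hk2, the inducible hexokinase that commits glucose to the cell, read 14.2, 11.3, 12.1 and 10.4 CPM in RISP_KO, against 3.22, 4.75, 3.23 and 5.31 CPM in RISP_WT. Every RISP_KO library lay above every RISP_WT library, with a log2 fold change of 1.54 ± 0.21 (2.91-fold, adjusted p = 0.00131). Its constitutive relative Hk1 had a log2 fold change of 0.02 and was not called. Pfkp, a phosphofructokinase of the step that commits sugar to glycolysis, read 357, 396, 411 and 413 CPM in RISP_KO, against 255, 256, 257 and 261 CPM in RISP_WT. It rose by 0.61 ± 0.07 on the log2 scale without overlap (adjusted p = 0.000494), while its paralogs Pfkl at 0.16 and Pfkm at 0.46 were not called. Aldoa, the main aldolase, read 696, 705, 769 and 686 CPM in RISP_KO, against 475, 467, 485 and 467 CPM in RISP_WT. It too was separate between the groups, with a log2 fold change of 0.59 ± 0.07 (adjusted p = 0.000457). Tpi1, the triosephosphate isomerase, read 359, 295, 336 and 289.6 CPM in RISP_KO, against 181, 207, 198 and 197 CPM in RISP_WT. Its log2 fold change was 0.71 ± 0.09 (1.63-fold, adjusted p = 0.000777), again without overlap. Gpi1, which turns glucose phosphate into fructose phosphate, rose by 0.28 ± 0.07, and none of Pfkfb2, Pfkfb3 and Pfkfb4, whose log2 fold changes lay between -0.02 and 0.15, was called (0 of 3 at an unadjusted p under 0.05, and 0 by DESeq2).

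In lower glycolysis the median was 0.36 over 9 genes. Gapdh, which reduces NAD+ as it oxidises glyceraldehyde phosphate, read 916, 866, 857 and 832 CPM in RISP_KO, against 633, 587, 628 and 663 CPM in RISP_WT. That is a log2 fold change of 0.47 ± 0.07 with no overlap (adjusted p = 0.00206). Pgk1, the phosphoglycerate kinase that makes ATP, read 157, 148, 146 and 152 CPM in RISP_KO, against 122, 115, 116 and 116 CPM in RISP_WT. It rose by 0.36 ± 0.07 (adjusted p = 0.00764), as did Pkm by 0.37 ± 0.07, Pgam1 (phosphoglycerate mutase) by 0.36 ± 0.07 and Ldhb by 0.30 ± 0.08. Ldha read 2416, 2446, 2602 and 2513 CPM in RISP_KO, against 2283, 2045, 2328 and 2262 CPM in RISP_WT. Its groups did not overlap, but the difference of 0.16 ± 0.07 was not called (adjusted p = 0.167). The enolases Eno1, Eno2 and Eno3 had log2 fold changes of 0.25, 0.80 and 0.30 with adjusted p of 0.0555, 0.0683 and 0.0947.

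G6pdx, the glucose phosphate dehydrogenase at the entry of the pentose phosphate pathway, read 122, 152, 149 and 154 CPM in RISP_KO, against 136, 129, 142 and 133 CPM in RISP_WT. The groups overlapped and the log2 fold change was 0.10 ± 0.09 (adjusted p = 0.528). Over the 7 genes of the pathway the log2 fold changes lay between -0.17 and 0.26. The summed markers of macrophages, B cells, epithelial cells and natural killer cells did not overlap between the same groups, as given above, and their part in these differences was not tested. In bulk RNA fewer cells of a type and less RNA per cell cannot be told apart. Without RISP_KO replicate 3 and RISP_WT replicate 2, a setting chosen after seeing the data, 5 of the 11 remained called: Hk2, Pfkp, Aldoa, Tpi1 and Gapdh. Those 5 kept the call in all 14 alternatives run, while Gpi1 lost it without RISP_KO replicate 2 or 3 or RISP_WT replicate 1, 2 or 4, Ldhb without RISP_KO replicate 1 or 2 or RISP_WT replicate 1, 3 or 4, and Slc16a3 without RISP_KO replicate 1 or 3 or RISP_WT replicate 1, 2 or 3. The annotation holds genes on the opposite strand that overlap Slc2a1, Hk1, Hk2, Gpi1, Pfkm, Pfkp, Pfkfb2, Pfkfb3, Tpi1, Gapdh, G6pdx and Rpe, and the strand setting of the counting is not given, so reads of such pairs cannot be told apart.

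In the chimeras, glycolytic and pentose phosphate mRNA showed no called difference. Of the 32 genes 0 were called by edgeR, where 0.708% of all genes were. At an unadjusted p under 0.05, Eno3 and Slc16a1 were higher and Pgls lower, and DESeq2 called Eno3 and Slc16a1 higher. Eno3, the muscle enolase, read 43.3, 44.1, 39.2 and 41.9 CPM in RISP_Chimera_KO, against 29.4, 37.4, 34.2 and 29.7 CPM in RISP_Chimera_WT, a log2 fold change of 0.36 ± 0.10 (adjusted p = 0.129). Slc16a1, a lactate transporter, read 43.1, 41.5, 44.1 and 38.4 CPM in RISP_Chimera_KO, against 32.3, 34.9, 25.2 and 34.2 CPM in RISP_Chimera_WT, a log2 fold change of 0.40 ± 0.11 (adjusted p = 0.130). In both, the groups did not overlap. The median log2 fold change was 0.01 over the members and 0.00035 over all 14399 genes.

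Hexokinase, glucose uptake, the lactate end and the entry to the pentose phosphate branch were represented by genes that were not called between the chimera groups. Hk2 read 8.00, 7.68, 8.30 and 6.14 CPM in RISP_Chimera_KO, against 4.83, 6.60, 5.73 and 9.0 CPM in RISP_Chimera_WT, and its log2 fold change was 0.20 ± 0.21 (adjusted p = 0.740). Slc2a1 read 55.8, 47.1, 51.6 and 50.1 CPM in RISP_Chimera_KO, against 56.3, 52.4, 46.0 and 48.1 CPM in RISP_Chimera_WT, a log2 fold change of 0.01 ± 0.09 (adjusted p = 0.971). Both pairs of groups overlapped. Ldha read 520.2, 498, 485 and 426 CPM in RISP_Chimera_KO, against 487, 525, 492 and 436 CPM in RISP_Chimera_WT, a log2 fold change of -0.0080 ± 0.08 (adjusted p = 0.983). G6pdx read 41.9, 35.6, 38.7 and 39.6 CPM in RISP_Chimera_KO, against 40.1, 36.5, 33.9 and 44.1 CPM in RISP_Chimera_WT, a log2 fold change of 0.01 ± 0.10 (adjusted p = 0.980). The ranges of these genes overlapped as well.

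The difference between the knockout effects was tested itself, as the effect in chimeras minus the effect at 3 weeks over 16 libraries. For 7 of the 32 genes it was called, all with the chimera effect the lower, against 3.27% of all genes called, 2.04% in that direction and 1.23% in the other. It was -1.36 ± 0.30 for Hk2 (adjusted p = 0.0186), -0.66 ± 0.12 for Tpi1, -0.61 ± 0.10 for Pfkp, -0.60 ± 0.11 for Gapdh, -0.45 ± 0.12 for Aldoa, -0.38 ± 0.09 for Pkm and -0.38 ± 0.10 for Pgk1. These are the inducible hexokinase and 6 further glycolytic enzymes, all of them among the 11 called higher in RISP_KO. Both tests use the RISP_KO and RISP_WT libraries, so this overlap is not independent support. For Slc2a1, Ldha and G6pdx the difference was not called. The settings differ in age and in library kit as well as in the chimera, and these cannot be told apart. Tpi1, Pfkp and Gapdh kept the call in all 22 alternatives run, whereas the count of 7 fell to 3 without RISP_WT replicate 3 and to 4 without any one of RISP_WT replicates 1, 2 and 4, RISP_Chimera_KO replicate 4, or RISP_Chimera_WT replicates 2 and 3. Without RISP_Chimera_KO replicates 2 and 4, the libraries with the highest summed macrophage markers in a group that ranged from 18.7 to 57.8 CPM (17.2 to 38.1 CPM in RISP_Chimera_WT), 3 were called, a setting chosen after seeing the data. The part of those cells in the result was not tested.

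**Figure D2:**
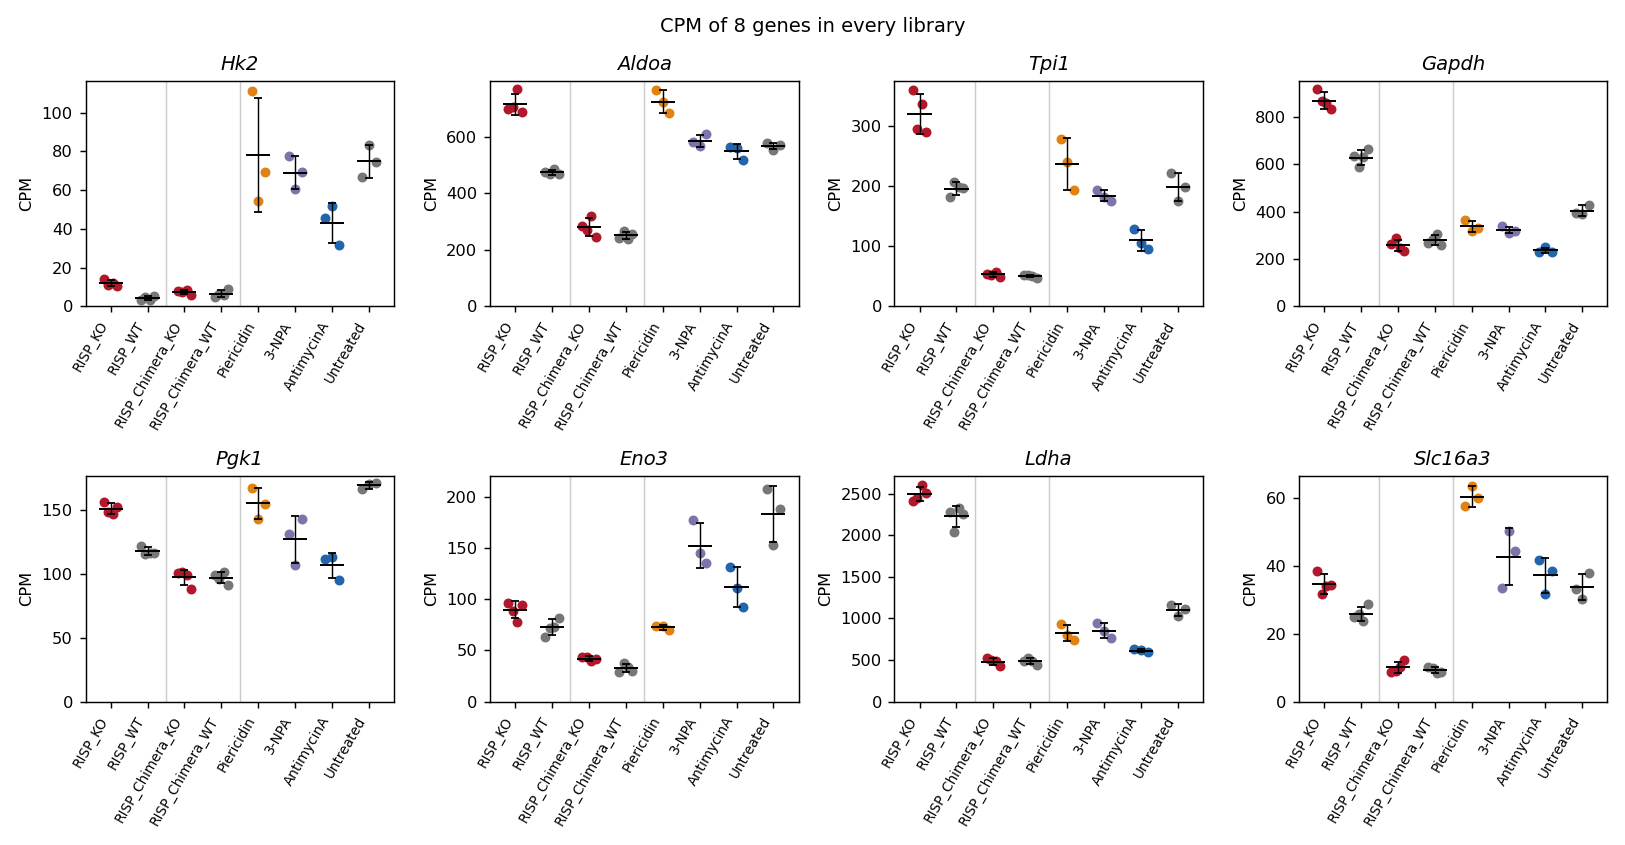
CPM (vertical axes, linear, from 0) of 8 genes in each library (points) of the 8 groups, with group means and SD as horizontal and vertical lines, and with grey lines between the 3 separately normalized tables. The RISP_KO points of Hk2, Aldoa, Tpi1, Gapdh and Pgk1 lie above all RISP_WT points, the chimera groups overlap for those genes, and antimycin A points of Hk2, Tpi1, Gapdh, Pgk1, Eno3 and Ldha lie below all untreated points.

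Glycolytic mRNA was mostly lower under inhibition of complex III. With 1 µM antimycin A, 11 of the 32 genes fell and 1 rose, where 15% of all genes were called, 8.5% lower and 6.5% higher. The median log2 fold change was -0.15 over the members and 0.022 over all 11689 genes tested. The falls lay mainly in lower glycolysis, with 7 of 9 genes lower, and included 2 of 9 upper glycolytic genes, 1 of 4 transporters and 1 of 7 pentose phosphate genes. The 3 inhibitors share their untreated libraries, so their comparisons with them are not independent.

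Ldha read 635, 617 and 592 CPM with antimycin A, against 1164, 1025 and 1118 CPM in untreated cells. The groups stood well apart, with a log2 fold change of -0.84 ± 0.09 (0.557-fold, adjusted p = 2.35e-09). Gapdh read 231, 249 and 228 CPM with antimycin A, against 392, 389 and 429 CPM untreated, and fell by 0.77 ± 0.09 on the log2 scale (adjusted p = 2.33e-08). Tpi1 read 129.6, 105 and 96.1 CPM with antimycin A, against 222, 176 and 199 CPM untreated, a log2 fold change of -0.85 ± 0.12 (adjusted p = 2.44e-06). Both enzymes of the triose steps thus lay below all untreated libraries. Pkm read 869, 778 and 790.4 CPM with antimycin A, against 1193, 1156 and 1156 CPM untreated, a log2 fold change of -0.52 ± 0.08 (adjusted p = 3.48e-06). Pgk1 read 112, 113 and 95.0 CPM with antimycin A, against 166, 171 and 171 CPM untreated, a log2 fold change of -0.67 ± 0.12 (adjusted p = 6.87e-05). For both kinases, which make the ATP of glycolysis, the groups did not overlap. Hk2 read 45.6, 51.8 and 31.7 CPM with antimycin A, against 66.6, 83.5 and 74.3 CPM untreated, a log2 fold change of -0.79 ± 0.20 (adjusted p = 0.00374), also without overlap.

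Tkt, the transketolase that links the pentose phosphate pathway back to glycolysis, read 374, 395 and 335 CPM with antimycin A, against 588, 510.2 and 531 CPM untreated. All treated libraries were lower, with a log2 fold change of -0.56 ± 0.09 (adjusted p = 8.76e-06). G6pdx read 70.3, 73.1 and 77.1 CPM with antimycin A, against 80.6, 85.6 and 84.6 CPM untreated. Its groups did not overlap either, yet the log2 fold change of -0.19 ± 0.14 was not called (adjusted p = 0.433). Slc2a1 read 54.2, 64.9 and 54.8 CPM with antimycin A, against 72.5, 48.5 and 53.9 CPM untreated, with overlap and a log2 fold change of -0.0035 ± 0.17 (adjusted p = 0.994). Eno1, Eno3 and Slc16a1 fell by 0.50, 0.71 and 0.54 on the log2 scale. Pgam1 fell by 1.00, with 13.3, 15.8 and 21.2 CPM with antimycin A, against 19.2, 34.7 and 47.0 CPM untreated, and these ranges overlapped. Eno2, the neuronal enolase and a gene of 11 to 76 reads per library in vitro, was the member that edgeR called higher, by 1.15 ± 0.37 (adjusted p = 0.0281). Pfkfb4, another gene of few reads, had a log2 fold change of 1.46 ± 0.53 that missed the threshold (adjusted p = 0.0567). DESeq2 called 11 members lower and 3 higher, namely Slc2a3, Pfkfb4 and Eno2. The glucose transporter gene Slc2a3 read 8.74 ± 1.09 CPM per kb with antimycin A, against 6.61 ± 0.32 untreated (SD). Its libraries lay above the untreated range with every inhibitor, but edgeR called it with none. The number called stayed between 11 and 14 under the alternatives run, but Pgam1 lost its call without AntimycinA replicate 1 or Untreated replicate 3, and Eno2 without AntimycinA replicate 2 or Untreated replicate 1 or 3.

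Under inhibition of complex I, by piericidin, the genes changed in both directions. Of the 32 genes, 2 rose and 7 fell, where 13.6% of all genes were called, 5.62% higher and 7.93% lower. The median log2 fold change was -0.01 over the members and 0.012 over all genes. Of the 9 upper glycolytic genes 8 were positive and 1 was called higher, with a median of 0.25. Of the 9 lower glycolytic genes 1 was positive and 5 were called lower, with a median of -0.26. DESeq2 called 4 members higher and 8 lower. Eno3 read 74.3, 73.9 and 69.9 CPM with piericidin, against 208, 153 and 189 CPM untreated. It had the largest fall among the members, with a log2 fold change of -1.34 ± 0.14 (0.396-fold, adjusted p = 1.09e-08) and no overlap. Slc16a3 read 57.7, 63.7 and 60.1 CPM with piericidin, against 33.1, 30.3 and 38.0 CPM untreated, a log2 fold change of 0.84 ± 0.19 (adjusted p = 0.00180). Slc16a1 read 103, 79.7 and 82.4 CPM with piericidin, against 112, 127 and 132 CPM untreated, a log2 fold change of -0.48 ± 0.14 (adjusted p = 0.0122). The exporter thus lay above and its paralog below all untreated libraries. Aldoa read 765, 721 and 683 CPM with piericidin, against 576, 553 and 569 CPM untreated, a log2 fold change of 0.35 ± 0.08 (adjusted p = 0.00158), also without overlap.

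Ldha read 933, 802 and 743 CPM with piericidin, against 1164, 1025 and 1118 CPM untreated, a log2 fold change of -0.42 ± 0.09 (adjusted p = 0.000612). Tkt read 435, 427 and 372 CPM with piericidin, against 588, 510.2 and 531 CPM untreated, a log2 fold change of -0.40 ± 0.09 (adjusted p = 0.00121). Neither gene overlapped between the groups. Pgam1, Eno1 and Gapdh fell by 0.86, 0.29 and 0.26 on the log2 scale. The ranges of Pgam1 overlapped between the groups, and those of Eno1 and Gapdh did not. Hk2 read 111, 54.2 and 69.2 CPM with piericidin, against 66.6, 83.5 and 74.3 CPM untreated, a log2 fold change of 0.06 ± 0.19 (adjusted p = 0.895). Slc2a1 read 98.3, 76.4 and 64.3 CPM with piericidin, against 72.5, 48.5 and 53.9 CPM untreated, a log2 fold change of 0.45 ± 0.17 (adjusted p = 0.0775). In both of these uptake and entry genes the groups overlapped, and Piericidin replicate 1 was the highest library. G6pdx read 68.4, 67.3 and 65.6 CPM with piericidin, against 80.6, 85.6 and 84.6 CPM untreated, without overlap but with a log2 fold change of -0.32 ± 0.14 that was not called (adjusted p = 0.142). The count of 9 fell to 5 without Untreated replicate 3, to 6 without Piericidin replicate 2 and to 7 without Piericidin replicate 3. In each of these fits 5 of the 9 calls remained and those of Slc16a1, Pgam1, Eno1 and Gapdh were lost, and the rest of the 6 and of the 7 were calls gained. Slc2a1 was called higher without Piericidin replicate 3 (adjusted p = 0.0420) and without Untreated replicate 1 (adjusted p = 0.0276).

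Under inhibition of complex II, by 3-NPA, 1 of the 32 genes rose and 3 fell, where 3.23% of all genes were called, 1.35% higher and 1.87% lower. The median log2 fold change was -0.06 over the members and -0.0058 over all genes. Ldha read 939.6, 854 and 764 CPM with 3-NPA, against 1164, 1025 and 1118 CPM untreated, a log2 fold change of -0.37 ± 0.09 (adjusted p = 0.00873). Gapdh read 338, 311 and 319 CPM with 3-NPA, against 392, 389 and 429 CPM untreated, a log2 fold change of -0.32 ± 0.09 (adjusted p = 0.0298). Pgk1 read 131, 107 and 143 CPM with 3-NPA, against 166, 171 and 171 CPM untreated, a log2 fold change of -0.41 ± 0.12 (adjusted p = 0.0414). All 3 genes lay below the untreated range. Eno2 read 21.2, 11.8 and 21.7 CPM with 3-NPA, against 3.57, 11.2 and 7.95 CPM untreated, a log2 fold change of 1.27 ± 0.37 (adjusted p = 0.0451), with replicate 2 close to the highest untreated library. Hk2 read 77.4, 60.6 and 69.2 CPM with 3-NPA, against 66.6, 83.5 and 74.3 CPM untreated, a log2 fold change of -0.12 ± 0.19 (adjusted p = 0.830). Slc2a1 read 52.8, 59.1 and 63.2 CPM with 3-NPA, against 72.5, 48.5 and 53.9 CPM untreated, a log2 fold change of 0.0042 ± 0.17 (adjusted p = 0.994). G6pdx read 79.8, 74.6 and 92.0 CPM with 3-NPA, against 80.6, 85.6 and 84.6 CPM untreated, a log2 fold change of -0.02 ± 0.14 (adjusted p = 0.963). These entry genes overlapped throughout. The count of 4 fell to 0 without 3-NPA replicate 3, Untreated replicate 1 or Untreated replicate 3, and to 2 without 3-NPA replicate 1 or 2.

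The inhibitors were also compared with each other. Antimycin A gave lower levels than piericidin in 8 of the 32 genes and a higher level in 1, where 0.736% of all genes were called, 0.299% lower and 0.436% higher. The falls were in Tpi1 (-1.10 ± 0.12, adjusted p = 5.45e-08), Hk2 (-0.85), Pfkl (-0.69), Pgk1 (-0.54), Gapdh (-0.51), Ldha (-0.43 ± 0.09, adjusted p = 0.00482), Aldoa (-0.40) and Pkm (-0.33), and the rise was in Eno3 (0.62 ± 0.14). Tpi1, Gapdh and Aldoa kept the call in all 12 alternatives run, while the count fell to 3 without Piericidin replicate 1 and to 5 without AntimycinA replicate 3. Against 3-NPA, antimycin A gave lower levels in 8 genes, Tpi1 (-0.74 ± 0.12, adjusted p = 0.000219), Hk2 (-0.68), Ldha (-0.47), Gapdh (-0.45), Eno3 (-0.45), Pkm (-0.36), Eno1 (-0.33) and Tkt (-0.29), where 3.98% of all genes were called, 2.38% lower. None was called higher, also at an unadjusted p under 0.05 and by DESeq2 (0 genes each), where 1.6% of all genes were. That count fell to 4 without 3-NPA replicate 1 or AntimycinA replicate 3, and to 5 without 3-NPA replicate 3. Piericidin against 3-NPA gave higher Aldoa (0.30) and Pfkp (0.38) and lower Eno3 (-1.07 ± 0.14, adjusted p = 1.48e-06) and Pfkm (-0.86), where 4.29% of all genes were called, 1.87% higher and 2.43% lower. The count of 4 fell to 2 without 3-NPA replicate 1 or 3. Without 3-NPA replicate 1 Aldoa, Pfkp and Pfkm all lost the call, so that count includes a call gained. Aldoa also lost it without 3-NPA replicate 2 or Piericidin replicate 1 or 2. Pfkp lost it without Piericidin replicate 1 and Pfkm without Piericidin replicate 2 or 3, while Eno3 kept it in all 12 alternatives run. In none of these 3 comparisons was Slc2a1 or G6pdx called, with adjusted p between 0.146 and 0.988.

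The loss of RISP and the inhibition of the same complex by antimycin A went with opposite changes in 6 genes. Of the 11 members higher in RISP_KO, 6 (Hk2, Tpi1, Gapdh, Pgk1, Pgam1 and Pkm), or 54.5%, were lower with antimycin A, 0 were higher, and 5 (Gpi1, Pfkp, Aldoa, Ldhb and Slc16a3) were not called. The same 6 are 54.5% of the 11 members lower with antimycin A. Over all genes tested in both, 574 were higher in RISP_KO, of which 25.4% were lower and 9.93% higher with antimycin A, and 14.9% of the 981 genes lower with antimycin A were higher in RISP_KO. With piericidin, 2 of the 11 were higher (Aldoa and Slc16a3) and 2 lower (Gapdh and Pgam1), where 5.05% of the 574 were higher and 26.0% lower. With 3-NPA, 2 of the 11 were lower (Gapdh and Pgk1) and 0 higher, where 7.14% of the 574 were lower and 2.09% higher. The knockout and the in vitro comparisons share no libraries, but the settings differ in library kit and culture as well as in the means of losing complex III, and these cannot be told apart. The difference between the effects was not tested.

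**Figure D3:**
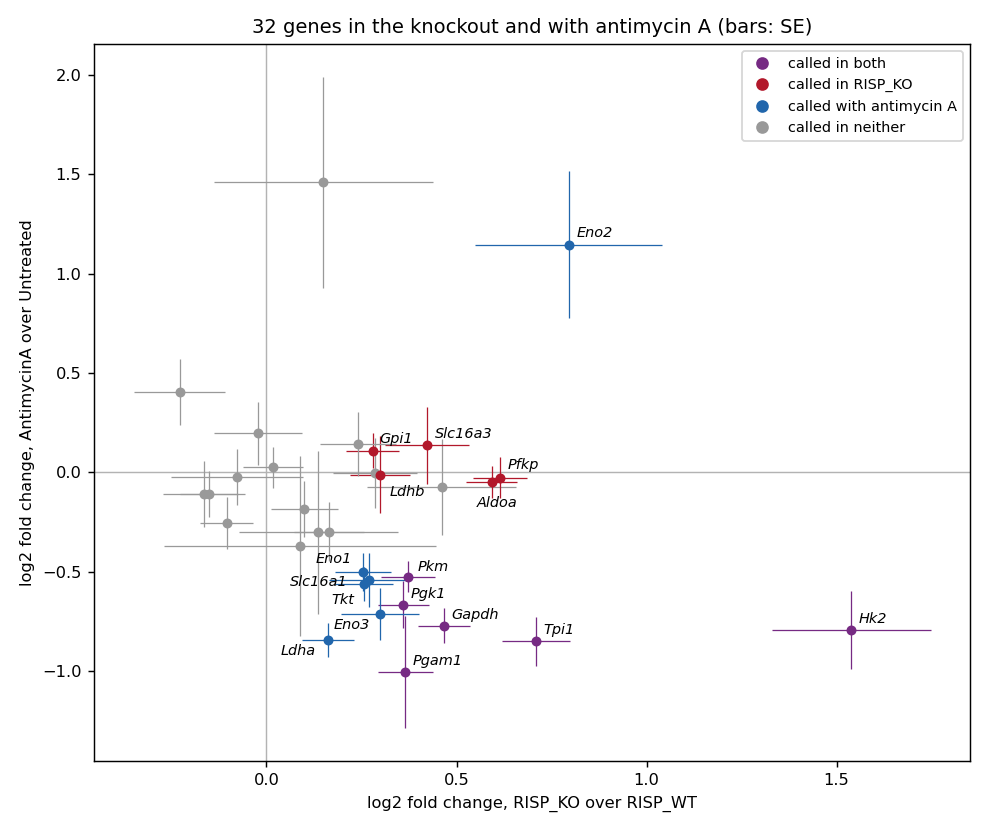
Log2 fold change of each of the 32 genes in RISP_KO over RISP_WT (horizontal) and with antimycin A over untreated (vertical), with bars of 1 SE and names for genes called in either. The 6 genes called in both lie at the lower right, higher in RISP_KO and lower with antimycin A, and Hk2 lies farthest right, at 1.54 and -0.79.

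The balance between related enzymes also differed, given here as ratios of CPM per kb of merged exons and as a description with no test. The ratio of Hk2 to Hk1 averaged 0.0534 ± 0.00959 in RISP_KO and 0.0184 ± 0.00431 in RISP_WT (SD), without overlap, and 0.292 ± 0.046 with antimycin A and 0.530 ± 0.108 in untreated cells, also without overlap. The ratio of Pfkp to Pfkl was 1.36 ± 0.14 in RISP_KO and 0.988 ± 0.039 in RISP_WT, and that of Slc2a3 to Slc2a1 was 0.640 ± 0.019 in RISP_KO and 0.915 ± 0.089 in RISP_WT, both without overlap. Eno3 to Eno1 was 0.624 ± 0.088 with piericidin and 1.27 ± 0.19 in untreated cells, and 0.290 ± 0.035 in RISP_Chimera_KO and 0.233 ± 0.015 in RISP_Chimera_WT. Ldha to Ldhb fell below the untreated range with every inhibitor, at 12.1 ± 0.81 with piericidin, 9.56 ± 0.67 with 3-NPA, 8.60 ± 0.89 with antimycin A and 15.3 ± 1.30 in untreated cells. Slc16a3 to Slc16a1 lay above the untreated range with every inhibitor, at 0.578 ± 0.104 with piericidin, 0.332 ± 0.10 with 3-NPA, 0.367 ± 0.057 with antimycin A and 0.228 ± 0.026 in untreated cells. With 3-NPA it did so only narrowly, as replicate 1 read 0.248, against 0.246 in Untreated replicate 1, and edgeR called neither gene there.

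**Figure D4:**
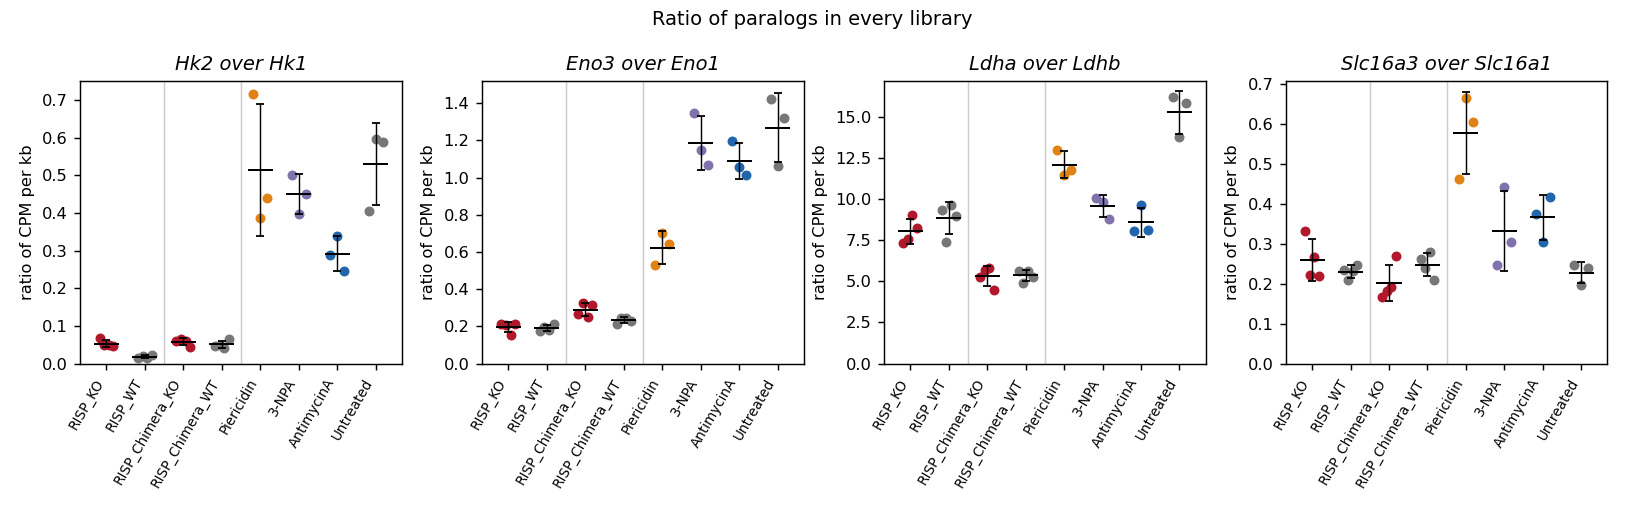
Ratio of 4 pairs of related genes, in CPM per kb of merged exons (vertical axes, from 0), in each library (points), with group means and SD as lines. Ldha over Ldhb is below the untreated libraries with all 3 inhibitors (means of 12.1, 9.56 and 8.60, against 15.3 untreated). Slc16a3 over Slc16a1 is above them, with 3-NPA only narrowly (0.248 in its replicate 1, against 0.246 in Untreated replicate 1). Hk2 over Hk1 is above RISP_WT in RISP_KO.

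Outside the 32 genes, 48 further genes of glucose use were read for context, among them other hexokinases, pyruvate dehydrogenase and its kinases and the mitochondrial pyruvate carrier. In RISP_KO 2 of the 38 tested rose and 2 fell (10.5%, against 9.86% of all genes). The rises were in Slc2a6 (2.47 ± 0.32), a sugar transporter family member, and Prps1 (0.43 ± 0.08), which turns ribose phosphate into a precursor of nucleotides. The falls were in Gpd2 (-0.71 ± 0.12) and Gpd1l (-0.54 ± 0.12), a mitochondrial and a cytosolic glycerol phosphate dehydrogenase. In the chimeras 0 of 39 were called by edgeR, with 2 higher and 3 lower at an unadjusted p under 0.05 and 1 (Pgm2l1) called higher by DESeq2. With piericidin, Pck2 (0.71 ± 0.17) and Pdk1 (0.66 ± 0.14) rose and Prps1 fell (-0.61 ± 0.15) of 34 tested. With 3-NPA, Slc16a6 fell (-0.56 ± 0.15). The shares called were 8.82% with piericidin, against 13.6% of all genes, and 2.94% with 3-NPA, against 3.23%. For antimycin A, with the genes that follow, the share was 8.82%, against 15% of all genes. With antimycin A, Pck2 rose (0.51 ± 0.17) and Slc16a6 (-0.56 ± 0.15) and Dld (-0.37 ± 0.13), a subunit of pyruvate dehydrogenase, fell. Pck2 and Pdk1 code for the mitochondrial enzyme that makes phosphoenolpyruvate and for a kinase that restrains pyruvate dehydrogenase.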

How the data were processed

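RNA of sorted Treg cells was sequenced in 28 libraries. The authors deposited whole-number read counts per Ensembl gene in 3 tables, 1 for mice 3 weeks old, 1 for chimeras and 1 for cells in vitro. Per the submitters' processing notes, the tools were bcl2fastq, TopHat, HTSeq and edgeR and the build was mm10, and versions and the strand setting are not given in the sources used here. Per the labels' protocols, a Takara kit was used for the mice 3 weeks old and a NEB kit for the other libraries. A further 11 columns matched no sample used here and were left out.

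Symbols were matched for 42462 of 43430 gene IDs. Each table was filtered with filterByExpr, scaled by TMM and tested with edgeR 4.0.16 (quasi-likelihood, R 4.3.3), with Benjamini-Hochberg adjustment over all genes tested and a call at an adjusted p under 0.05. The 12 in vitro libraries shared 1 fit, and both knockout tables were joined for the difference between effects. CPM use TMM-scaled totals, SE is the log2 fold change over the root of F, and levels per kb use merged exons of the GENCODE annotation of GRCm38. The tests were checked on simulated data. Alternatives were DESeq2 1.42.0, RLE size factors, counts left unfiltered or kept above 1 CPM, a replicate block, a fit of each pair of groups, and each library left out.

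The members and lists were chosen with earlier results of these data known. Values in every library are given for the called members of smallest p (at most 6) in each comparison with a control, and for Slc2a1, Hk2, Ldha and G6pdx. Other genes named with such values (Uqcrfs1 as the check of the knockout, and Eno3, Slc16a1, Pgam1 and Eno2 where a result turned on them) were added after their values were seen. The values of 1 cell type marker are not reported here, and it is left out of its list's sum in the text.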

Additional observations from a re-analysis of the deposited data

Results flagged for a closer look

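Among the 128 sets of 4 libraries (each member in each knockout or wild-type group), 10 had a library set apart from the others by a gap above Dixon's critical value, as a share of the group's range, where chance gives about 1 in 20 sets. In RISP_KO these were Pfkl in replicate 3, the highest at 172 CPM, and G6pdx in replicate 1, the lowest at 122 CPM. In RISP_WT they were Hk1 in replicate 1, the lowest at 292 CPM, Pfkm in replicate 3, the lowest at 9.98 CPM, and Pgk1 in replicate 1, the highest at 122 CPM. In RISP_Chimera_KO they were Hk1 in replicate 2, the lowest at 165 CPM, and Pfkm in replicate 4, the highest at 23.7 CPM. In RISP_Chimera_WT they were Slc2a3 in replicate 4 and Rpia in replicate 2, the highest at 156 and 68.8 CPM, and Hk1 in replicate 1, the lowest at 147 CPM.

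The effect of the knockout differed between the chimeras and the mice 3 weeks old in 7 genes, by the test of the difference itself. The chimera effect minus the effect at 3 weeks was -1.36 for Hk2, -0.61 for Pfkp, -0.45 for Aldoa, -0.66 for Tpi1, -0.60 for Gapdh, -0.38 for Pgk1 and -0.38 for Pkm on the log2 scale. Uqcrfs1 itself had a smaller fall in the chimeras, with a difference of 1.20 ± 0.27 (adjusted p = 0.0191), and its part in these differences was not tested.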

How the results depend on the processing

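No call reversed its direction under any alternative run. Of members called, DESeq2 gave 2 in the chimeras against 0, and no filter on low counts gave 4 against 7 for the difference between knockout effects. Leaving out RISP_KO replicate 3 and RISP_WT replicate 2 gave 5 members of 11 and 620 genes of 1364. Leaving out RISP_Chimera_KO replicates 2 and 4 gave 3 members and 319 genes for the difference (7 and 509) and 247 genes in the chimeras (102). Of all genes called, DESeq2 gave 2141 in RISP_KO, 436 in the chimeras, 688 with 3-NPA (377), 202 for antimycin A against piericidin (86), 789 for antimycin A against 3-NPA (465), 815 for piericidin against 3-NPA (502) and 917 for the difference, and no filter gave 208 in the chimeras. Leaving out 1 library at a time gave 8 to 13 members and 787 to 1486 genes in RISP_KO, 0 members and 33 to 177 genes in the chimeras, 5 to 11 members and 1009 to 1421 genes (1584) with piericidin, 0 to 3 and 130 to 295 with 3-NPA, and 11 to 12 and 1261 to 1613 (1754) with antimycin A. It gave 3 to 8 members and 43 to 75 genes for antimycin A against piericidin, 4 to 7 and 188 to 454 against 3-NPA, 2 to 4 and 230 to 409 for piericidin against 3-NPA, and 3 to 8 and 323 to 627 for the difference. The cause of these shifts, the smaller number of libraries included, was not tested. At 3 weeks and in the chimeras, replicate numbers did not pair the libraries. The correlations of deviations lay between -0.041 and 0.029 at 3 weeks and between -0.102 and 0.127 in the chimeras. In vitro they lay between 0.0040 and 0.090, and the same-numbered library was the best match in 15 of 18 pairs. Weak pairing in vitro is thus possible, and the main fit did not use it. With the replicate block 7 members and 895 genes were called in RISP_KO, and 3 members and 324 genes for the difference. In vitro the block gave 13 members and 1733 genes with piericidin (9 and 1584 without it). It gave 4 and 481 with 3-NPA (4 and 377) and 13 and 1900 with antimycin A (12 and 1754). Read depth was not varied.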

Other observations

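Rpia, which makes ribose phosphate in the pentose phosphate pathway, read 5.90 ± 0.68 CPM in RISP_KO and 6.22 ± 0.89 CPM in RISP_WT (SD, n = 4 each), against group means of 64.5 to 78.1 CPM in the other groups. Foxp3 was also lower in the table of the mice 3 weeks old than in the others, as given above, and the tables differ in library kit.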
